A study of Mus musculus with 10 samples.

Results

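The 47 genes described here copy DNA or supply the nucleotides for it, and they were followed in the palate of mouse embryos that lack the TGF-beta type II receptor in the neural crest. They were chosen by name, from the origin recognition complex through the replicative helicase, polymerases, clamp and ribonucleotide reductase to chromatin assembly. Earlier results of these data were known when they were chosen, so counts over the list are a description. For each gene the probe set with the highest mean over the 10 arrays was used, among probe sets that the platform annotation gives to exactly 1 gene. Of the 47 genes, 46 had such a probe set among the 18194 genes of the table, with 103 probe sets in all, and Chaf1a was not analysed here.

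Both groups were secondary palate of strain C57B6 at the embryonic stage E14.5, around the time when the shelves of the palate meet and fuse. The mutant group comprised 5 arrays of genotype Tgfbr2fl/fl;Wnt1-Cre, in which both Tgfbr2 alleles are floxed and the Wnt1-Cre recombinase deletes them in neural crest cells and their descendants. The control group had 5 arrays of genotype Tgfbr2fl/fl, with the same floxed alleles and no Cre in the label, although its titles call it wildtype. Each array was hybridised with total RNA of 1 sample, and the labels do not say whether each came from a separate embryo, so the p-values reflect sample-to-sample spread, which may be technical. Wnt1-Cre leaves the gene intact in palate cells that do not descend from the neural crest, such as epithelium, muscle and endothelium. Tgfbr2 was 10.7 to 10.8 in mutant arrays, against 10.5 to 10.8 in control arrays (deposited log2 values). Its log2 fold change was 0.08 (95% confidence interval -0.06 to 0.22, limma adjusted p = 0.482), and because no source used here places its probe set inside or outside the deleted exons, the value is no check of the deletion.

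A cell that divides must copy each chromosome once. Before S phase the origin recognition complex, CDC6 and CDT1 load the MCM2-7 helicase ring onto DNA, and the DDK kinase, MCM10, CDC45 and the GINS complex then turn the loaded ring into an active helicase. Polymerase alpha and primase start each strand, and polymerases delta and epsilon extend it on the PCNA clamp that the RFC complex loads. Many of these genes are transcribed as cells enter S phase under E2F transcription factors, so their transcripts are commonly used to mark dividing cells, and growth of the palatal shelves depends on division of their mesenchyme.

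Transcripts of the replication machinery were lower in mutant palate, by small amounts. Of the 46 genes measured, 36 were lower at a limma adjusted p under 0.05 and 10 were not called, while of all genes 5.36% were lower. At an unadjusted p under 0.05 in limma, 44 were lower and 0 higher, against 2755 lower and 1826 higher of all 18194 genes. None was higher at the adjusted threshold, while of all genes 2.9% were higher. All 46 had a negative log2 fold change, against 48.6% of all genes, and their median was -0.34, against 0.00 over all genes. In bulk tissue, fewer cells in cycle and less RNA per cell cannot be told apart. Values below are the deposited log2 values, and differences are mutant minus control on that scale.

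**Figure D1:**
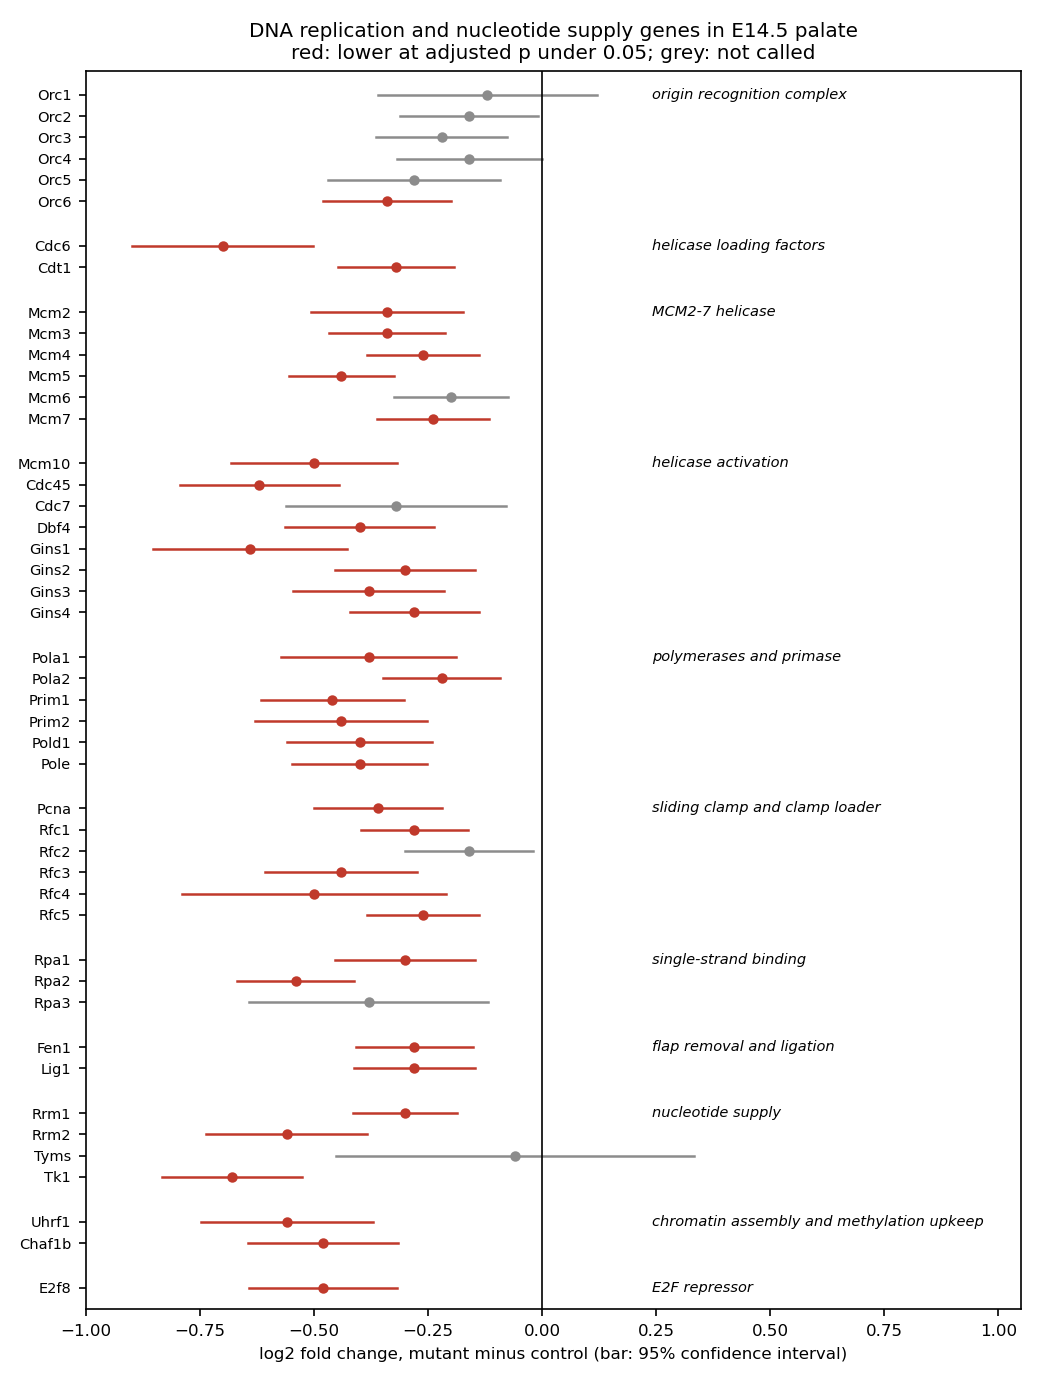
The horizontal axis is the log2 fold change of each of the 46 genes, mutant minus control, with its 95% confidence interval as a bar, in the order of the genes' roles from origin recognition to the E2F repressor. Every point lies left of 0, from -0.70 for Cdc6 to -0.06 for Tyms, and 36 are red for an adjusted p under 0.05.

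The groups were separated on the arrays themselves for most of the genes. For 36 of the 46 every mutant array lay below every control array, a pattern that 4.93% of all genes showed. In 34 of these 36 the gene was also called, and Orc3 and Rpa3 separated the groups without a call. Only Pola2 and Rpa1 were called with overlapping arrays. No gene of the 46 had every mutant array above every control array, against 1.82% of all genes. The changes were modest: 4 of the 46, Cdc6, Tk1, Gins1 and Cdc45, were called and at least 1.5-fold lower, against 0.797% of all genes. Replicates lay close together, with a median SD of 0.08 in mutant and 0.11 in control arrays, near the rounding step of 0.1 in the deposited values.

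Some facts about the arrays bear on these counts. Control replicate 1 stood apart, with a correlation over all genes of 0.985 to 0.989 with the other 9 arrays, which correlated at 0.989 to 0.996 among themselves. It was the highest control array for 23 of the 46 genes (31.1% of all genes) and the lowest for 7 (19.6% of all genes). Without it, 38 of the 46 genes were lower, against 6.08% of all genes, and the median log2 fold change was -0.32. After each array was centred on its own median, 25 of the 46 were lower, against 2.61% of all genes lower. Over all genes that centring gave 474 lower and 1283 higher, against 975 lower and 528 higher as deposited, and it moved the median of all genes by 0.08. The array medians were 7.4 in every mutant array and control replicate 4, and 7.5 in the other control arrays. They thus differed only by the rounding step of 0.1.

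Markers of skeletal muscle, a tissue that does not come from the neural crest, also moved with genotype. Of 9 muscle markers, 7 were lower and none higher, with a median log2 fold change of -1.86, and their summed linear level was 815 to 6099 in mutant and 4350 to 14859 in control arrays. With the median of these markers as a covariate, 0 of the 46 genes were called lower by limma, against 0.011% of all genes. At an unadjusted p under 0.05 in that limma fit 36 of the 46 were lower, and the share of all genes was not counted. The median log2 fold change of the 46 was then -0.35, while the median standard error (SE) was 0.12, against 0.07 without the covariate. In mutant replicate 4 the muscle median stood at 0.58 above its 10-array mean, within the control range of 0.38 to 2.01. The replication median of that array was -0.135, the highest of the mutant arrays and below every control array. Control replicate 5 had the highest muscle median, 2.01, and the lowest replication median of the control arrays, 0.10. Over the 10 arrays the muscle median correlated with genotype at -0.793, and genotype and muscle content cannot be told apart.

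Markers of other cell types were called in few cases. Among 9 markers of palatal mesenchyme, all with means of at least 8.88, Tbx22 was higher and Barx1 lower, and the median log2 fold change was -0.02. Their summed level was 14174 to 16278 in mutant and 13205 to 16114 in control arrays, so the labelled tissue was present in both groups. None of 4 erythroid, 6 macrophage and leukocyte, 6 endothelial, 7 epithelial, 4 glia and neuron and 7 cartilage and bone markers was called by limma, and at an unadjusted p under 0.05 there were 2 erythroid, 1 epithelial and 2 cartilage and bone markers. Erythroid markers had a median log2 fold change of -0.43, with summed levels of 1069 to 1598 in mutant and 1373 to 2491 in control arrays, and their part in the result was not tested. For the other 5 lists the medians ran from -0.17 to 0.16. RMA values have no zero, so no marker can be called absent.

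**Figure D2:**
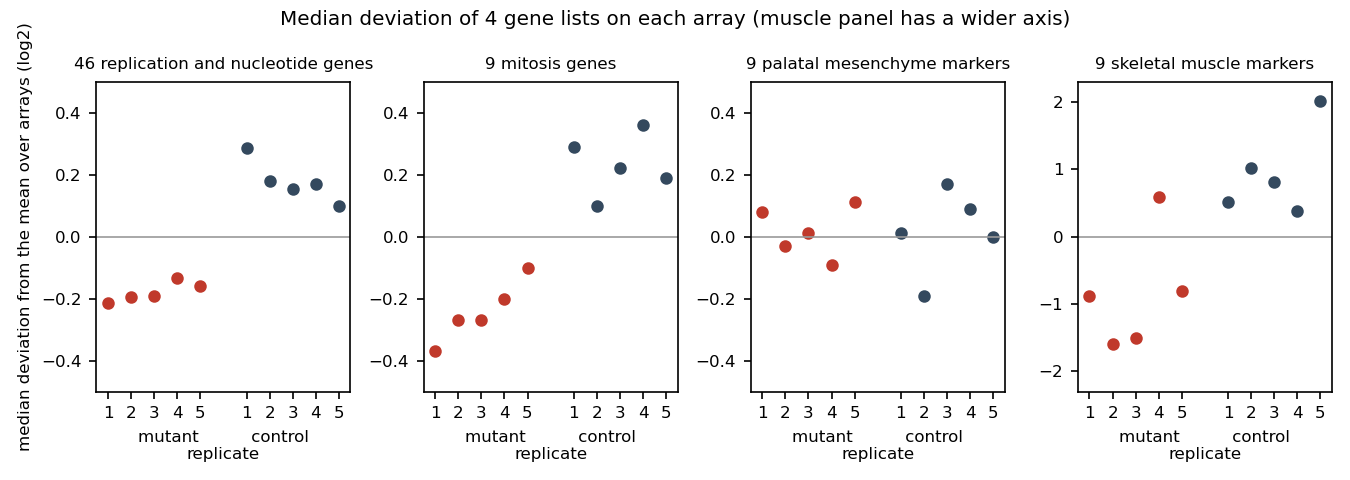
Each point is 1 array, mutant arrays in red on the left and control arrays in dark blue on the right, and the vertical axis is the median deviation of a gene list from its mean over the 10 arrays in log2 units. The 46 replication and nucleotide genes lie at -0.215 to -0.135 in mutant and 0.10 to 0.285 in control arrays. The muscle markers lie at -1.59 to 0.58 in mutant and 0.38 to 2.01 in control arrays.

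Promoters of 5 of the genes are shown because E2F factors are known to act on replication genes. The genes were chosen for their role in replication, and whether E2F factors had a part in the decrease was not tested. Bases from 250 before to 50 after the start site were taken from RefSeq on the GRCm38.p6 build, in which 40 of the 47 genes matched with 49 promoters. As E2F sites, 4 strings were searched on both strands, TTTCCCGC, TTTCGCGC, TTTGCCGC and TTTGGCGC, and these can overlap one another. At least 1 of them lay in the promoters of 14 of the 40 genes (35.0%), and in those of 704 of all 27025 genes in the table. By promoter the shares were 28.6% and 2.26%. TTTCCCGC was found in 7 of the 40, TTTCGCGC in 7, TTTGGCGC in 5 and TTTGCCGC in none. The CCAAT box was present in 25 of the 40 (62.5%), against 41.1% of all genes, and the letters TTTGAA, the core of the CHR element of late cell cycle genes, in 7 (17.5%), against 20.2%.

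Called and uncalled genes both held matches. Of 30 genes that were lower and had a promoter in the table, 11 held an E2F-type match (36.7%), and of 9 that were not called, 3 did (33.3%), a difference that was not tested. The following are the 250 bases before the start site, 5′ to 3′ on the strand of the gene, for the 3 called genes with the smallest p that hold a match, the called gene with the smallest p that holds none, and the uncalled gene with the largest p that holds one. Capitals mark the E2F-type match. A match is a string of letters and was not tested as a binding site.
Mcm5, chr8:75109259-75109508, plus strand: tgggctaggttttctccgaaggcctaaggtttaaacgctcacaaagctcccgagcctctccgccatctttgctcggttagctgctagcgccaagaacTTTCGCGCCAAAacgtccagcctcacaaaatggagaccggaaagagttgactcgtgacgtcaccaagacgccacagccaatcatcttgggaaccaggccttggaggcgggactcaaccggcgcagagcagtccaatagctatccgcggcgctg
Cdc6, chr11:98907901-98908150, plus strand: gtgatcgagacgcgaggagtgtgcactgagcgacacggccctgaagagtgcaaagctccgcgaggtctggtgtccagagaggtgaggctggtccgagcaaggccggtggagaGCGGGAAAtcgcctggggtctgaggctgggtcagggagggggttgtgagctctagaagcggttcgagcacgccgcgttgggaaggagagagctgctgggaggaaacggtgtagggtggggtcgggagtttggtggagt
Uhrf1, chr17:56304063-56304312, plus strand: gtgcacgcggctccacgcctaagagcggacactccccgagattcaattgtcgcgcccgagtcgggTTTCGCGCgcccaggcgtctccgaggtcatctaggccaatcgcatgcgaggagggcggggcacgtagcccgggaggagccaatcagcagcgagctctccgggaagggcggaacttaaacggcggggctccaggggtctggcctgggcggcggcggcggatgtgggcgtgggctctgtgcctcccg
Tk1, chr11:117826015-117826264, minus strand: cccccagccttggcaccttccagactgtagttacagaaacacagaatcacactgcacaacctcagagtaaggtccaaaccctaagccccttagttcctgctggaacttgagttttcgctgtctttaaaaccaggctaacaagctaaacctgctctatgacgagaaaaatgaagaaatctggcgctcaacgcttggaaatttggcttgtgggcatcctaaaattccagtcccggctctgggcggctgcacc
Orc1, chr4:108579204-108579453, plus strand: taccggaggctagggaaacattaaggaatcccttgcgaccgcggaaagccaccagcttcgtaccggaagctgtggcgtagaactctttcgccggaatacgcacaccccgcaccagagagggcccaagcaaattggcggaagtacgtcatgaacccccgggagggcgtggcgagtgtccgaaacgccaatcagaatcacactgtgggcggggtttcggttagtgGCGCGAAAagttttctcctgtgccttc

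In the Mcm5 promoter 2 overlapping matches on opposite strands, with first bases at -153 and -149 from the start site, form 1 run of capitals. The Mcm6 promoter holds the same kind of pair, at -110 and -106, and a further match at -47. The Cdc6 match stood at -138 and the Uhrf1 match at -185. Orc1 had its match at -27 and was not called on its brightest probe set.

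**Figure D3:**
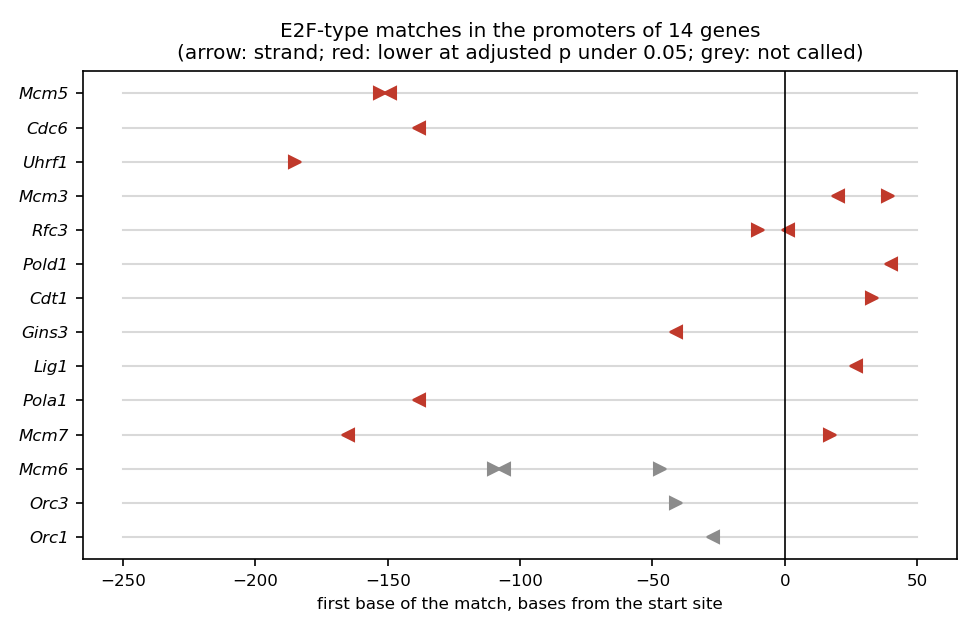
Each row is 1 of the 14 genes with an E2F-type match, ordered from the smallest p at the top, and the horizontal axis is the distance in bases of the first base of each match from the start site. The 11 called genes are red and Mcm6, Orc3 and Orc1, not called, are grey. Matches lie on both sides of the start site.

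The origin recognition complex, which marks origins and stays bound to chromatin through much of the cycle, had the smallest median change of the roles. Only Orc6 of the 6 subunits was called, with values of 9.2, 9.4, 9.3, 9.4 and 9.3 in mutant arrays, against 9.8, 9.7, 9.6, 9.6 and 9.6 in control arrays. The groups did not overlap, and Orc6 fell by 0.34 (SE 0.06, adjusted p = 0.0107). Orc1 to Orc5 were not called, with log2 fold changes of -0.28 to -0.12 and adjusted p between 0.0618 and 0.539. For Orc1, the subunit whose level changes with the cell cycle in human cells, the interval was -0.36 to 0.12. A dimmer Orc1 probe set had a log2 fold change of -0.40 (adjusted p = 0.0431 over all probe sets), and a dimmer Orc2 probe set one of -0.32 (0.0433), so the count of called subunits depends on the choice of probe set. The median of the 6 subunits was -0.19, against -0.34 over all 46 genes, a difference between genes that was not tested.

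The loading factors fell. Cdc6, the ATPase that joins ORC to load the helicase, had 7.5, 7.8, 7.8, 7.9 and 7.7 in mutant arrays, against 8.7, 8.4, 8.4, 8.3 and 8.4 in control arrays. This 1.62-fold decrease was the largest of the 46 (log2 fold change -0.70, SE 0.09, adjusted p = 0.00176), and the groups did not overlap. Cdt1, the partner that brings MCM2-7 to the origin, was 10.16 ± 0.09 in mutant and 10.48 ± 0.04 in control arrays (SD, n = 5 each), a decrease of 1.25-fold (limma adjusted p = 0.00926).

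Of the 6 genes of the MCM2-7 helicase ring 5 fell, with log2 fold changes of -0.44 to -0.24. Mcm5 was at 10.9 in 4 mutant arrays and 11.0 in mutant replicate 4, against 11.4, 11.3, 11.4, 11.4 and 11.3 in control arrays (log2 fold change -0.44, SE 0.05, adjusted p = 0.00119). Mcm3 was 9.9 in 4 mutant arrays and 10.1 in mutant replicate 4, against 10.3 in 4 control arrays and 10.2 in control replicate 5 (-0.34, adjusted p = 0.00717). Neither subunit had overlapping groups. Mcm2 was 9.7, 9.8, 9.8, 10 and 10 in mutant arrays, against 10.3, 10.1, 10.1, 10.2 and 10.3 in control arrays (-0.34, adjusted p = 0.0222), and its call was lost when any of 4 arrays was left out. Mcm4 and Mcm7 fell by 0.26 and 0.24 (adjusted p = 0.0189 and 0.0257), and the Mcm7 call was lost when any of 3 arrays was left out. Mcm6 was 11.2, 11.4, 11.3, 11.2 and 11.3 in mutant arrays, against 11.5 in 4 control arrays and 11.4 in control replicate 5. Its groups touched at 11.4, and its log2 fold change of -0.20 was not called (interval -0.33 to -0.07, adjusted p = 0.0528).

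Genes that activate the loaded helicase fell in 7 of 8 cases, with a median log2 fold change of -0.39. Cdc45, which completes the active CMG helicase with GINS, had 6.9, 7.2, 7.3, 7.3 and 7.2 in mutant arrays, against 7.9, 7.8, 7.8, 7.8 and 7.7 in control arrays (1.54-fold lower, log2 fold change -0.62, SE 0.08, adjusted p = 0.00165). Another Cdc45 probe set, with a mean of 6.95 against 7.49, went the other way at 0.14 (limma adjusted p = 0.397 over all probe sets). With the mean of all probe sets the Cdc45 log2 fold change was -0.24 (limma adjusted p = 0.0176). Gins1 had 8.2, 8.4, 8.3, 8.4 and 8.4 in mutant arrays, against 9.3, 9.0, 8.9, 9.0 and 8.7 in control arrays. It was 1.56-fold lower (adjusted p = 0.00383), and without control replicate 1, its highest array, the log2 fold change was -0.56 in place of -0.64. The other GINS subunits also fell, Gins3 by 0.38, Gins2 by 0.30 and Gins4 by 0.28 (adjusted p = 0.0135, 0.0255 and 0.0253). The Gins2 call was lost when either of 2 arrays was left out and the Gins4 call when any of 3 was, and both were lost after centring. Mcm10, which helps the helicase start, fell by 0.50 (7.74 ± 0.11 in mutant and 8.24 ± 0.15 in control arrays, SD, n = 5 each, limma adjusted p = 0.00611).

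The DDK kinase, which switches on the loaded helicase, has 2 subunits. Dbf4, the regulatory subunit, fell by 0.40, with 9.2, 9.1, 9.3, 9.3 and 9.4 in mutant arrays, against 9.8, 9.6, 9.5, 9.7 and 9.7 in control arrays (adjusted p = 0.0103). Cdc7, the catalytic subunit, had 9.2, 8.9, 9.2, 9.3 and 9.2 in mutant arrays, against 9.1, 9.5, 9.7, 9.5 and 9.6 in control arrays. Control replicate 1 was the lowest control and lay among the mutants, and Cdc7 was not called (-0.32, interval -0.56 to -0.08, adjusted p = 0.0955). Without that array its log2 fold change was -0.42 and it was called (adjusted p = 0.014).

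All 6 polymerase and primase genes fell, with a median log2 fold change of -0.40. Prim1, the catalytic primase subunit that makes the RNA primer, had 9.9, 9.8, 9.9, 10 and 9.9 in mutant arrays, against 10.6 in control replicate 1 and 10.3 in the other 4 control arrays (-0.46, SE 0.07, adjusted p = 0.00439). Its partner Prim2 fell by 0.44 (adjusted p = 0.0129). Pold1 and Pole, the catalytic subunits of polymerases delta and epsilon, each fell by 0.40, Pole to 8.5 to 8.6 in mutant arrays, against 8.8 to 9.1 in control arrays (adjusted p = 0.00907 for Pold1 and 0.0068 for Pole). Pola1, the X-linked catalytic subunit of polymerase alpha, was 8.60 ± 0.10 in mutant and 8.98 ± 0.18 in control arrays (SD, n = 5 each, -0.38, limma adjusted p = 0.0248), and its call was lost when either of 2 arrays was left out. Pola2, its second subunit, had the smallest called change, -0.22, and that call was lost when any of 9 arrays was left out. Its arrays touched at 8.7 in mutant replicate 1 and control replicate 1.

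The sliding clamp and its loader fell in 5 of 6 genes. Pcna, the ring that tethers polymerases to DNA, had 12.2, 12.2, 12.3, 12.4 and 12.3 in mutant arrays, against 12.8 in control replicate 1 and 12.6 in the other 4 control arrays (-0.36, SE 0.06, adjusted p = 0.0081). Rfc4, a small loader subunit, was 9.1 in all 5 mutant arrays, against 10.2, 9.4, 9.4, 9.5 and 9.5 in control arrays. Its log2 fold change was -0.50 with control replicate 1 and -0.35 without it (adjusted p = 0.0394 and 0.0027), and the call was lost when any of 8 arrays was left out, of which control replicate 1 was not one. Rfc3 fell by 0.44, Rfc1, the large subunit, by 0.28, and Rfc5 by 0.26 (adjusted p = 0.00741, 0.0116 and 0.0189). Rfc2 was not called (-0.16, interval -0.30 to -0.02, adjusted p = 0.146).

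RPA, the complex of 3 subunits that coats single-stranded DNA, included the second smallest p-value of the 46. Rpa2 had 8.8, 8.9, 8.8, 8.9 and 8.8 in mutant arrays, against 9.5, 9.4, 9.3, 9.3 and 9.4 in control arrays (1.45-fold lower, -0.54, SE 0.06, adjusted p = 0.000879). Rpa1, the large subunit, fell by 0.30 (adjusted p = 0.0255), with mutant replicate 4 and control replicate 1 both at 11.2. Its call was lost when any of 5 arrays was left out and with Eif2s3y as a covariate (adjusted p = 0.092). Rpa3 had 9.6, 9.5, 9.6, 9.7 and 9.7 in mutant arrays, against 10.5, 10, 9.8, 9.8 and 9.9 in control arrays. No arrays overlapped, but the spread of the controls was large, and Rpa3 was not called (-0.38, adjusted p = 0.075). Without control replicate 1 it was called at a smaller change (-0.26, adjusted p = 0.0321). Fen1, the nuclease that trims Okazaki fragment flaps, and Lig1, the ligase that seals them, each fell by 0.28 (adjusted p = 0.0168 and 0.0189), and the Lig1 call was lost when 1 of the arrays was left out.

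**Figure D4:**
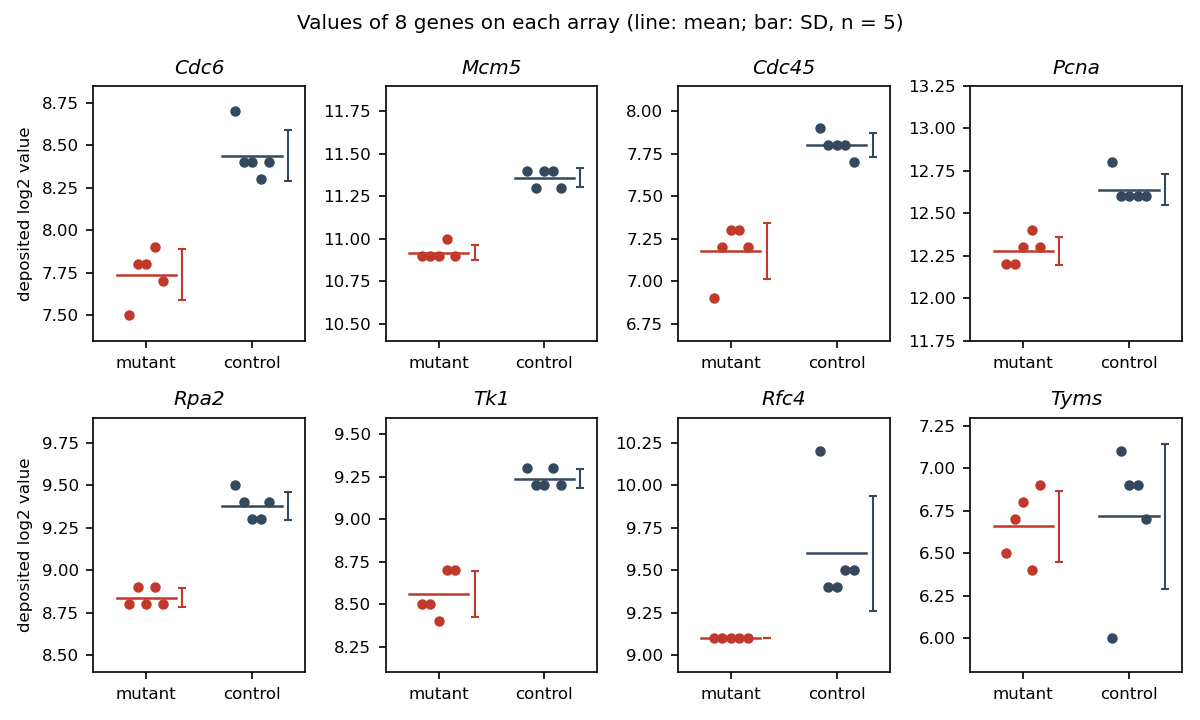
Each point is 1 array, mutant arrays in red at the left and control arrays in dark blue at the right, and the vertical axis is the deposited log2 value over a span of 1.5 in each panel, with the mean as a line and the SD as a bar (n = 5). Cdc6, Mcm5, Cdc45, Pcna, Rpa2 and Tk1 show no overlap, Rfc4 has 1 high control array at 10.2, and Tyms overlaps.

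Nucleotide supply genes fell in 3 of 4 cases. Tk1, the cytosolic thymidine kinase of the salvage pathway, had 8.5, 8.5, 8.4, 8.7 and 8.7 in mutant arrays, against 9.3, 9.2, 9.2, 9.3 and 9.2 in control arrays, which gave the smallest p of the 46 (log2 fold change -0.68, SE 0.07, adjusted p = 0.000806). Rrm2, the small subunit of ribonucleotide reductase that is made in S phase, had 10.3, 10.3, 10.4, 10.6 and 10.6 in mutant arrays, against 10.9, 10.9, 11.1, 11.1 and 11.0 in control arrays (-0.56, adjusted p = 0.00282). Rrm1, the large subunit, was 10.4 in all 5 mutant arrays, against 10.6 to 10.8 in control arrays (-0.30, SE 0.05, adjusted p = 0.00755). Both subunits thus separated the groups.

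Tyms, thymidylate synthase, which makes dTMP from dUMP, was the exception among the nucleotide genes. It had 6.5, 6.7, 6.8, 6.4 and 6.9 in mutant arrays, against 6.0, 7.1, 6.9, 6.9 and 6.7 in control arrays. The groups overlapped, and the log2 fold change was -0.06 (interval -0.45 to 0.33, adjusted p = 0.875), or -0.24 without control replicate 1, its lowest array (adjusted p = 0.197). The Tyms probe set used was itself dim, with a mean of 6.69, below the median over all probe sets with 1 gene symbol. The other 3 Tyms probe sets were dimmer still, with means of 3.54 to 5.50, and gave -0.52, 0.06 and 0.16, none of them called. A further probe set that the annotation shares between Tyms and its pseudogene Tyms-ps was not used. The interval of the brightest probe set includes the change measured for Rrm1.

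Genes that restore chromatin behind the fork also fell. Uhrf1, which recruits the maintenance DNA methyltransferase to newly copied CpG sites, had 9.8, 9.9, 9.7, 9.9 and 10 in mutant arrays, against 10.7, 10.4, 10.3, 10.4 and 10.3 in control arrays (1.47-fold lower, -0.56, SE 0.09, adjusted p = 0.00418). Chaf1b, a subunit of the histone chaperone CAF-1, fell by 0.48 (adjusted p = 0.00452). E2f8, an atypical E2F that represses E2F targets late in the cycle, had 8.1, 8.0, 8.1, 8.0 and 8.1 in mutant arrays, against 8.7, 8.4, 8.4, 8.7 and 8.5 in control arrays (-0.48, adjusted p = 0.0043). Its groups did not overlap.

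Further probe sets of the same genes gave the same direction where their mean was at least 8. Of the 57 probe sets not used, 50 had a negative and 6 a positive log2 fold change and 1 was at 0, and 22 were lower at an adjusted p over all probe sets, where 3.41% of all probe sets were lower. Of the 28 with a mean of at least 8, all 28 were negative, 19 were called and the median was -0.35. Of the 29 dimmer ones, 3 were called and the median was -0.18. The 6 positive values belonged to Cdc45, Cdt1, Chaf1b, Prim2 and 2 probe sets of Tyms, with means of 3.21 to 6.95, and none of them was called. Rrm2 had all 3 of its probe sets called (-0.56, -0.56 and -0.62), while the other probe set of Mcm4 was bright, at a mean of 10.6, and had a log2 fold change of -0.06 (adjusted p = 0.769).

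**Figure D5:**
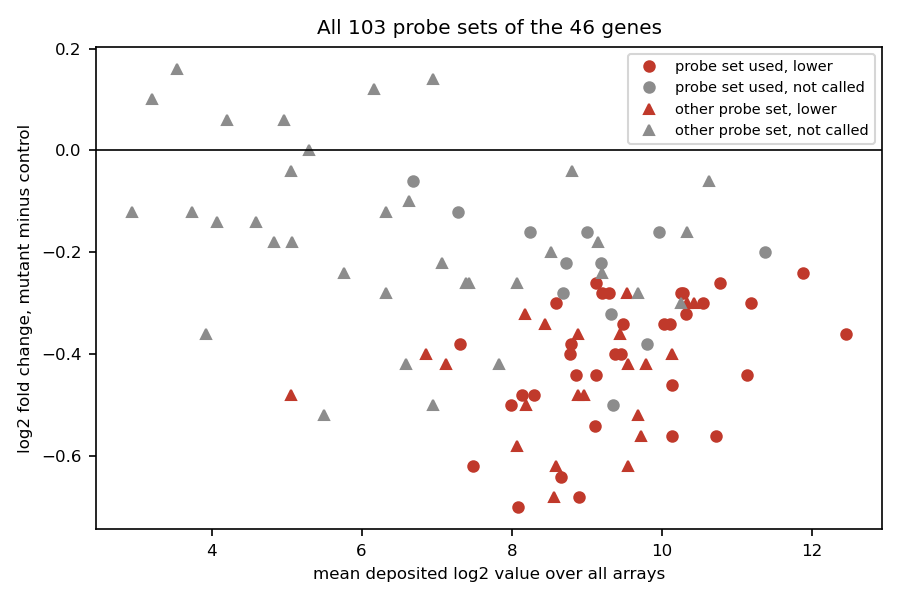
The horizontal axis is the mean log2 value over the 10 arrays and the vertical axis the log2 fold change, mutant minus control, of all 103 probe sets of the 46 genes. Circles are the probe sets used and triangles the others, red where lower at an adjusted p under 0.05 over all probe sets. Points above 0 lie only at means under 8.

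Other genes of replication fell as well. Of 28 other fork proteins 20 were lower and none higher, with a median log2 fold change of -0.32. Pold2, the second subunit of polymerase delta, fell by 0.54 (SE 0.05, adjusted p = 0.000806), Ticrr, which brings CDC45 to origins, fell by 0.54 (SE 0.06, adjusted p = 0.000831), and Wdhd1, which links primase to the helicase, fell by 0.36 (SE 0.05, adjusted p = 0.00263). Among 8 other replication chromatin genes 6 were lower, and those with the smallest p were the histone chaperone Nasp (-0.44), the maintenance methyltransferase Dnmt1 (-0.34) and Cdca7 (-0.30). Of 6 genes of replication-coupled repair 5 were lower, and those with the smallest p were Brca1 (-0.46), Usp1 (-0.34) and Msh6 (-0.28), the last a call lost when any of 4 arrays was left out. Over 66 such genes in the 6 lists, 39 were lower and none higher by limma, while of all genes 5.36% were lower. At an unadjusted p under 0.05 in limma, 50 were lower and 0 higher, against 2755 lower and 1826 higher of all 18194 genes. The median log2 fold change of the 66 was -0.30. The count of 39 was 21 without mutant replicate 3, 24 without mutant replicate 1 and 24 without control replicate 3. In those 3 fits 457, 556 and 539 of all 18194 genes were lower. It was 19 after centring and 0 with the muscle covariate.

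Other nucleotide supply genes and the E2F family held both called and uncalled genes. Of 7 other nucleotide supply genes Dut, the dUTPase, fell by 0.40 (adjusted p = 0.0073) and Samhd1, which breaks down dNTPs, fell by 0.26 (adjusted p = 0.0201, lost when 1 of the arrays was left out), and 5 were not called. Of 12 E2F factors and pocket proteins 4 were lower and none higher. The pocket protein gene Rbl1 fell by 0.36 (SE 0.05, adjusted p = 0.00286), and E2f1, E2f2 and E2f6 fell by 0.38, 0.28 and 0.24 (adjusted p = 0.0232, 0.0414 and 0.0477), with the calls of E2f1, E2f2 and E2f6 lost when any of 3, 10 and 9 arrays was left out. E2f5, Tfdp2 and Rbl2 had positive log2 fold changes of 0.18, 0.06 and 0.10 and were not called. Of 5 S phase cyclin and kinase genes Ccna2, cyclin A2, fell by 0.54 (adjusted p = 0.00149) and Ccne1, cyclin E1, by 0.40 (adjusted p = 0.0325), a call lost when any of 7 arrays was left out. For comparison, 8 of 9 mitosis genes were lower, with a median log2 fold change of -0.50.

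The level of the 46 genes as a group can be given for each array, as a description. Their median deviation from the 10-array mean was -0.215, -0.195, -0.19, -0.135 and -0.16 in mutant replicates 1 to 5, against 0.285, 0.18, 0.155, 0.17 and 0.10 in control replicates 1 to 5. Mutant replicate 4 was thus the highest mutant array and control replicate 5 the lowest control array, and the groups did not overlap. Medians of all genes lay between -0.02 and 0.04 on the same arrays. Embryo sex was not determined, and the Y-linked gene Eif2s3y correlated with genotype at 0.514. It was 9.2, 9.0, 9.3, 9.1 and 5.1 in mutant replicates 1 to 5, against 9.1, 3.2, 3.3, 9.0 and 3.2 in control replicates 1 to 5. With Eif2s3y as a covariate 31 of the 46 genes were lower, against 677 of all 18194 genes, and the median log2 fold change of the 46 was -0.36. The calls of Mcm2, Mcm4, Gins4, Pola2 and Rpa1 were lost in that fit (limma adjusted p = 0.0574 for Mcm2 to 0.117 for Pola2).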

How the data were processed

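RNA of the palate was measured on 3' expression arrays, and the authors deposited log2 values made with RMA, per the submitters' processing notes, rounded to 0.1. No source used here states the version or settings of RMA. Probe sets with exactly 1 gene symbol in the platform annotation (34958 of 45101) were named through RefSeq gene IDs, and the probe set with the highest mean over 10 arrays stood for each of 18194 genes. Mutant minus control was fitted with limma 3.58.1 in R 4.3.3 (lmFit and eBayes, two-sided), with Benjamini-Hochberg adjustment over all genes and a threshold of 0.05. The fit was tested on simulated data. No scanner files were used, so background correction could not be varied, and the number of arrays, 5 per group, limits the precision.

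The 47 genes and the other lists were chosen with earlier results of these data known. All 47 were named, and up to 3 called genes with the smallest p from each related list, or all where a count was 5 or fewer. Motifs were searched on both strands of 300 bases per promoter. Alternatives were other probe set choices, filters, normalizations, variance models, array weights, covariates, a replicate block and each array left out.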

Additional observations from a re-analysis of the deposited data

Results flagged for a closer look

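In 19 of 92 groups of 5 arrays, 1 array lay far from the other 4 by Dixon's test, where chance flags about 1 in 20 groups. In 8 of the 19 the whole range was 0.1, the rounding step, so the distance is 1 step. Control replicate 1 accounted for 7 of the 19, and it was the high array in each. It stood at 8.7 for Cdc6 (others 8.3 to 8.4), 9.3 for Pola1 (others 8.9), 10.6 for Prim1 (others 10.3), 12.8 for Pcna (others 12.6), 10.2 for Rfc4 (others 9.4 to 9.5), 10.5 for Rpa3 (others 9.8 to 10) and 10.7 for Uhrf1 (others 10.3 to 10.4).

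Control replicate 5 was the low array for 4 genes, at 10.4 for Cdt1 (others 10.5), 10.2 for Mcm3 (others 10.3), 11.4 for Mcm6 (others 11.5) and 9.1 for Rfc5 (others 9.3). Mutant replicate 4 was the high array at 10.1 for Mcm3 (others 9.9) and 11.0 for Mcm5 (others 10.9). Mutant replicate 1 was low at 6.9 for Cdc45 (others 7.2 to 7.3) and 8.5 for Pole (others 8.6), and high at 8.7 for Pola2 (others 8.6). Mutant replicate 2 was low at 9.0 for Orc3 (others 9.1) and 8.9 for Cdc7 (others 9.2 to 9.3), and high at 7.2 for Gins3 (others 7.1).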

How the results depend on the processing

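Over 20 alternatives, 784 of 920 values of single genes kept their direction and their side of the threshold, and 17 of the 36 called genes kept their call in the 19 alternatives other than the muscle covariate. With the muscle covariate 0 of the 46 genes and 0 of the 66 related genes were lower. Centring each array on its median left a median log2 fold change of -0.26 for the 46 genes and -0.22 for the 66 related genes. After centring 19 related genes were lower, against 2.61% of all genes. The groups did not overlap for 23 of the 46, and that share over all genes was not counted. The median of the related genes was -0.25 with the mean of all probe sets and -0.25 with quantile normalization again. Same-numbered arrays did not deviate together (correlations of -0.099 to 0.105, and 0 of 10 arrays correlated best with its own number). These correlations showed no pairing by number, but they cannot exclude that same-numbered samples were handled together. With the replicate block 22 of the 46 and 18 related genes were lower, against 365 of all 18194 genes. With 1 array left out, 27 (without mutant replicate 3) to 38 (without control replicate 1) of the 46 genes were lower. Over all 18194 genes the counts in these 2 fits were 457 and 1107 lower. Of the related genes 21 to 39 were lower, the lowest counts being 21 without mutant replicate 3 and 24 without control replicate 3 and also without mutant replicate 1. Tyms, not called, turned positive with Eif2s3y as a covariate (0.15), after centring (0.02), and without control replicate 2 (0.035) or mutant replicate 4 (0.005), within -0.24 to 0.035 over the arrays left out. The causes were not tested. Values rounded to 0.1 limit what small differences can show.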
